A study of Mus musculus with 32 samples.

Results

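The genes described here are the mouse Wnt ligands, the Frizzled receptors (Fzd) that bind them, and the secreted Frizzled-related proteins (Sfrp), followed while embryonic stem cells were turned into primitive endoderm-like cells. The members were taken by symbol alone, as the rows named Wnt, Fzd or Sfrp followed by a number and, for some ligands, the letter a or b. This gave 33 of the 54233 rows deposited: 19 Wnt genes, 10 Fzd genes and 4 Sfrp genes. A member counted as detected when its mean normalized count reached 5 at some time point, and 24 of the 33 did: 10 Wnt genes, all 10 Fzd genes and all 4 Sfrp genes.

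Polyadenylated RNA was measured by bulk sequencing in 32 samples, 4 replicates at each of 8 time points. The question was how GATA6 drives mouse embryonic stem (mES) cells to the primitive endoderm (PrE) fate. All samples come from the KH2 line (strain label C57BL/6), which carries a doxycycline (Dox)-inducible transgene labelled TRE:GATA6-DSREd2, so uninduced and induced cells share the line and the transgene. The 0 h cells received no Dox and grew on gelatinized plates in 2i medium, which holds an inhibitor of MEK, an inhibitor of GSK3 and LIF. The cells of 2 h, 4 h and 8 h were kept in serum medium with LIF and Dox at 1 µg/ml up to harvest, and those of 16 h, 24 h, 48 h and 96 h had Dox for 12 h and then serum medium without it. Every comparison with 0 h therefore sets induced cells in serum against uninduced cells in 2i, and the part of Dox, of the medium and of time in it cannot be told apart. GATA6 was driven by a transgene in cultured cells of a single line. The labels do not say whether replicates of a time point were separate cultures. The study states in general that its replicates were performed independently, without saying at which step for these samples, so the p-values measure the spread between these samples.

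Wnt proteins are lipid-modified signals that a cell secretes to its neighbours. They bind Frizzled receptors together with co-receptors such as LRP5 and LRP6, which stops the GSK3-containing complex from destroying beta-catenin, and beta-catenin then acts with TCF/LEF factors on target genes. Other ligand and receptor pairs act without beta-catenin, on cell polarity and movement, and the Sfrp proteins resemble the ligand-binding part of a Frizzled receptor and can hold Wnt proteins outside the cell. In mES cells a GSK3 inhibitor stands in for a Wnt signal, and Wnt signals from extraembryonic endoderm are known to act in the patterning of the early embryo.

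The upstream sequences of 6 members are shown because the results below turn on these genes: a receptor that fell and one that rose (Fzd5 and Fzd7), 3 ligands with different timing (Wnt5b, Wnt6 and Wnt11) and the Sfrp gene that rose (Sfrp5). Each is the 250 bases before the RefSeq start of the gene in GRCm38.p6, read 5′ to 3′ on the gene's strand, and for genes with several RefSeq starts the outermost one. Capitals mark matches, on either strand, to GATA words (AGATAA or TGATAA or AGATAG or TGATAG) or to TCF/LEF words (CTTTGAA or CTTTGAT or CTTTGTT or CTTTGTA). The 2 sets of words do not overlap in these stretches. Fzd5 lies at chr1:64737751-64738000 on the minus strand, Fzd7 at chr1:59481897-59482146 on the plus strand, Wnt5b at chr6:119544348-119544597 on the minus strand, Wnt6 at chr1:74771642-74771891 on the plus strand, Wnt11 at chr7:98834862-98835111 on the plus strand and Sfrp5 at chr19:42202253-42202502 on the minus strand. The Fzd5 stretch also lies inside an exon of Gm38058, a transcript that GENCODE places on the other strand.
Fzd5: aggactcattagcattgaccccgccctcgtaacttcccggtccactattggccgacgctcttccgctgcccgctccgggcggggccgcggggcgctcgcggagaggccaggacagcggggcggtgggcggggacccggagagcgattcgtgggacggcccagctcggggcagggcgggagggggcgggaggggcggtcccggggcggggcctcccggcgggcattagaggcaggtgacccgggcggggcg
Fzd7: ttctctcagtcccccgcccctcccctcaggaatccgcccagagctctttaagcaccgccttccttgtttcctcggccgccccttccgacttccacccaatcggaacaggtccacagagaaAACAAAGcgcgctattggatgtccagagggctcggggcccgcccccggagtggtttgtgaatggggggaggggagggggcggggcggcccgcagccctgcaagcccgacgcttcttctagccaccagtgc
Wnt5b: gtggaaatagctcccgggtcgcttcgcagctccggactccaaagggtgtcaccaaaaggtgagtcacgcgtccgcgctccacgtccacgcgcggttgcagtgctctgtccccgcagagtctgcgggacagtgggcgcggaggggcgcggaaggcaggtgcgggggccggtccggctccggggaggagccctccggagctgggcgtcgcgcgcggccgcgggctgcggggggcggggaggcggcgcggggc
Wnt6: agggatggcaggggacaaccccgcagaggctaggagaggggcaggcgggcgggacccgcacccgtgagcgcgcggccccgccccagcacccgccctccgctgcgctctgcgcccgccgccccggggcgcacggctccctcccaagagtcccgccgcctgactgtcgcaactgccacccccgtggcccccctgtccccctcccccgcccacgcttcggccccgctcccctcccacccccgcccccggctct
Wnt11: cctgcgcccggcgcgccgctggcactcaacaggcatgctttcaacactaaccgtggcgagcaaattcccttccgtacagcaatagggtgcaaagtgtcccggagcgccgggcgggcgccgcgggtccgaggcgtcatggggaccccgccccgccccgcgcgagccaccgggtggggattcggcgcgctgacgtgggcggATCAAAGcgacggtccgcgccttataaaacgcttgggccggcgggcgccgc
Sfrp5: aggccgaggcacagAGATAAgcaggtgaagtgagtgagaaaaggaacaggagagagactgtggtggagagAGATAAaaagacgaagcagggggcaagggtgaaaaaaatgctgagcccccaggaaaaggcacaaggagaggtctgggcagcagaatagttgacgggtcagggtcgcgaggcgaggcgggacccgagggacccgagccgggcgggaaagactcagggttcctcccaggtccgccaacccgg

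Of the 33 members, 23 had a RefSeq promoter in the table used, with 26 starts between them. A GATA word stood in 5 of these 26 upstream stretches (19.2%) and in 26.5% of all 32851 stretches of the same length, and a TCF/LEF word in 3 of 26 (11.5%) and in 14.8% of all. The share of G and C letters in the 26 ran from 48.4% (Wnt8b) to 87.6% (Wnt3a), beside a median of 52.4% over all stretches. The part of base composition in these shares was not tested. The Sfrp5 stretch held 2 GATA words, 236 to 231 and 180 to 175 bases before the start. Fzd7 held a TCF/LEF word at 130 to 124 bases and Wnt11 one at 51 to 45 bases before the start, while the stretches shown for Fzd5, Wnt5b and Wnt6 held neither kind of word. In stretches not shown, another start of Wnt5b held a TCF/LEF word and another start of Wnt11 held a GATA word. A match describes letters and not a binding site.

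The libraries held 3190108 to 12301732 reads on genes (median 8870663). Replicates 1 and 2 resembled each other, as did replicates 3 and 4, more than the 2 sets resembled one another: the chi-square per degree of freedom of the counts was 1.59 in the median pair within a set and 11.4 between sets. The widest pair within a set was replicates 1 and 2 of 0 h, at 6.34, near the lowest value between sets, 6.61. What separates the sets is not given in the sources used here. The tests below count the 4 samples of a time point as independent, so their standard errors and p-values may be too small. The transgene row held no reads at 0 h and a mean of 618 normalized counts at 2 h. All 9 primitive endoderm markers listed were higher than at 0 h at 96 h, and 7 of 8 pluripotency markers lower. The summed level of 6 visceral endoderm markers went from 5.52 to 15.1 normalized counts in the 0 h samples to 17132 to 40154 in those of 48 h, where all 4 tested were called higher, with no read of Ttr or Apoa1 at 0 h. For 6 parietal endoderm markers it went from 4435 to 5945 up to 169267 to 209043 by 96 h, with 5 of 6 called higher. The 5 mesoderm and primitive streak markers went from 243 to 776 down to 88.9 to 131 by 96 h, with 1 of 2 tested called lower, and 5 neural ectoderm markers from 62.1 to 73.7 down to 26.5 to 30.5. The summed level of 5 fibroblast markers stayed between 1.63 and 33.2 normalized counts in all samples, with Postn or Col3a1 or both without a read at every time point. The 5 trophoblast markers together were at 350.6 to 519 at 0 h, 58.65 to 64.7 at 16 h, 744 to 953 at 48 h and 261 to 627 at 96 h. Of the 4 tested, 2 were called higher and 0 lower both at 48 h and at 96 h. The part of these lists in the results below was not tested. In bulk RNA, fewer cells with a transcript and less of it per cell cannot be told apart.

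In the tests below a member is called when its difference passed a false discovery rate of 0.1 over all 15227 genes tested and a fold of at least 4, on the scale log2(normalized count + 1). The log2 changes of members with few reads at 0 h depend on the added 1, so fold ratios of the reads are given with 95% exact counting intervals, which cover counting error only. The filter on low counts was passed by 22 members: 8 Wnt, 10 Fzd and 4 Sfrp genes. Since a member could pass it through the time point where it is high, counts over the 22 describe these members only. All comparisons with 0 h share the same 4 control samples.

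At 2 h, 4 of the 22 were called higher and 1 lower, beside 2% and 0.348% of all genes tested. At 4 h the counts were 4 higher and 2 lower, beside 2.69% and 0.709%. At 8 h they were 3 and 1, beside 3.4% and 1.31%, and at 16 h 3 and 3, beside 4.03% and 2.4%. At 24 h, 2 members were called higher and 5 lower, beside 4.85% and 4.34% of all genes. At 48 h the counts were 7 and 6, beside 8.48% and 7.09%, and at 96 h 4 and 5, beside 9.28% and 10.3%. Over the course 14 of the 22 members were called against 0 h at least once, beside 25.2% of all genes tested. Of these 8 were higher and 6 lower, beside 13.6% and 12.1%, and none was called in both directions against 0 h. The early calls were mostly ligands going up: all 4 members called higher at 2 h were Wnt genes. The median log2 change of the 22 members lay between 0.06 (2 h) and 0.89 (8 h), beside -0.03 to 0.01 over all genes tested.

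**Figure D1:**
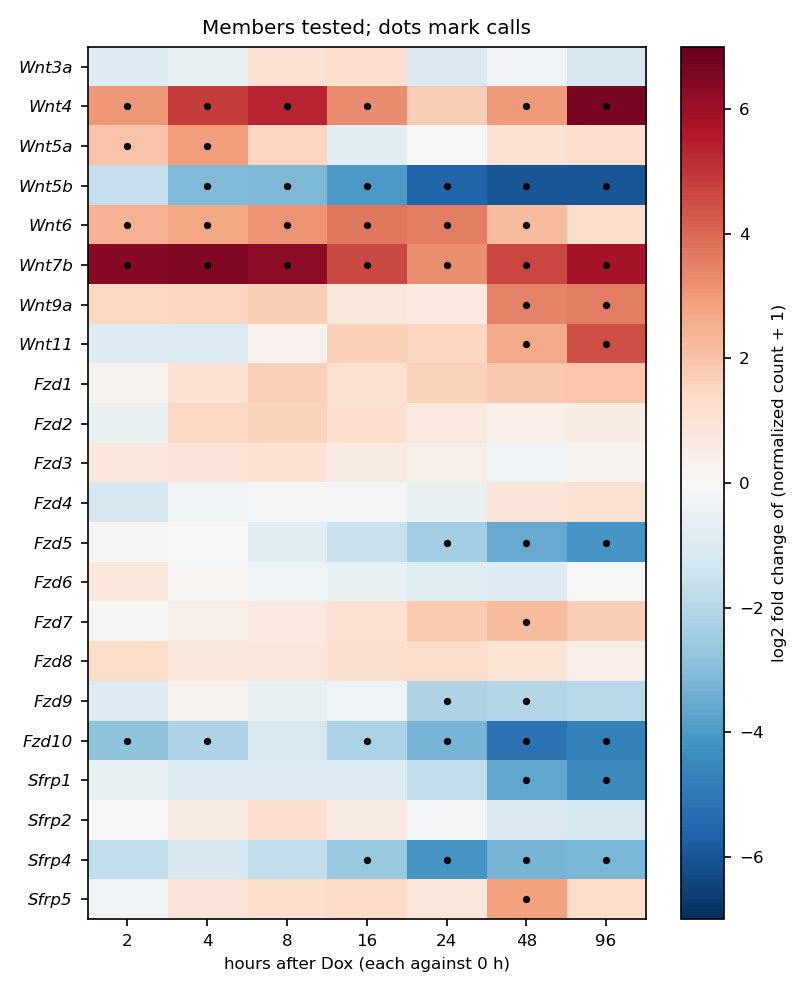
Heat map of the log2 fold change against 0 h (colour) for the 22 members tested (rows) at 7 time points (columns), with a dot where the member was called. Wnt7b is called at all 7 time points, Wnt5b from 4 h on, and Fzd5, Fzd10, Sfrp1 and Sfrp4 are blue at 48 h and 96 h.

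The ligands changed identity over the course rather than moving together. Among the 10 detected Wnt genes, Wnt4, Wnt5a, Wnt6 and Wnt7b were first called higher at 2 h, and Wnt9a and Wnt11 at 48 h. Wnt5b was first called lower at 4 h, though its mean at 2 h was already 28.7% of that at 0 h. Wnt3a was never called against 0 h, and Wnt2 and Wnt2b did not pass the filter and were not tested.

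Wnt7b, a ligand known for its part in lung and placental development (ENSMUSG00000022382), was the most abundant ligand per kilobase of exon at 2 h and 4 h. At 0 h its normalized counts were 0, 0.679, 2.42 and 1.89 in replicates 1 to 4. At 2 h they were 149, 122, 209 and 208, so the groups do not overlap. The log2 change was 6.39 (SE 0.33, adjusted p = 1.1e-15), and the reads were 134 times those at 0 h, with a counting interval of 57.2 to 414 since the 0 h samples held 5 reads in all. The level went down to a mean of 19.4 ± 7.78 (SD, n = 4) at 24 h and was at 108, 107, 108 and 117 at 96 h. All 7 time points stood above every 0 h sample. At 4 h replicates 3 and 4 held 265 and 298, more than the 114 and 116 of replicates 1 and 2. The antisense gene AU022754, which overlaps Wnt7b, had means of 0 to 1.19, and the strand setting of the counting is not given in the sources used here.

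Wnt4, a ligand known from kidney and ovary development (ENSMUSG00000036856), rose in 2 waves. The 0 h samples held 0, 0.679, 0.806 and 0, those of 8 h held 47.1, 63.4, 48.2 and 48.7, and the last ones, of 96 h, held 116, 91.5, 186 and 157. Between them it sank to 7.21, 4.38, 2.03 and 1.63 at 24 h, which is still above all 0 h samples, although this time point was not called. Wnt4 differed from 0 h by 5.31 on the log2 scale at 8 h (SE 0.32, adjusted p = 2.5e-14) and 6.66 at 96 h (adjusted p = 9.5e-18). With 2 reads at 0 h in all, the ratio of reads was 102 (interval 28.0 to 847) at 8 h and 270 (interval 74.3 to 2235) at 96 h. Wnt4 was called lower at 16 h than at 8 h by 2.02 on the log2 scale and higher at 96 h than at 48 h by 3.65. The calls at 2 h, 16 h and 48 h against 0 h ended with a pseudocount of 4, at log2 changes of 1.67, 1.89 and 1.65. The call of the drop at 16 h ended without 8 h replicate 2 (-1.92), 16 h replicate 3 (-1.94) or 16 h replicate 4 (-1.83).

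Wnt6, a ligand that embryonal carcinoma cells are known to make as they become primitive endoderm (ENSMUSG00000033227), took a slower course with its highest mean at 16 h. From 4.14, 5.44, 4.03 and 3.78 in the 0 h samples it went to 31.2, 30.2, 24.6 and 26.3 within 2 h and to 46.1, 70.9, 76.5 and 88.0 by 16 h. On the log2 scale the change of Wnt6 was 2.45 at 2 h (SE 0.23, adjusted p = 8.9e-10) and 3.71 at 16 h (adjusted p = 3.9e-14). It was called through 48 h, with 24.3 ± 4.16, and not at 96 h, where 14.9, 10.5, 15.1 and 7.56 still exceeded every 0 h sample. The calls at 2 h and 48 h ended with a pseudocount of 4 (1.94 and 1.76). Wnt6 and Wnt10a are neighbours on chromosome 1, and Wnt10a was not detected. Wnt6 overlaps the antisense gene Gm29539, whose means went from 0 at 0 h to 3.21 at 16 h, its highest, and the strand setting of the counting is not given.

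Wnt5a, the ligand best known for signalling without beta-catenin (ENSMUSG00000021994), made a short and small pulse. Against 2.76, 2.04, 1.61 and 0 before induction, it held 12.9, 17.0, 24.1 and 14.7 at 4 h, then 2.61, 0, 0 and 0 in the 16 h samples. The 4 h samples do not overlap those of 0 h, and the log2 change was 2.92 (SE 0.42, adjusted p = 1.8e-06), a ratio of reads of 9.93 (interval 4.56 to 25.6). It was called lower at 16 h than at 8 h by 2.28, a call that ended with a pseudocount of 4 (-1.10). The call at 2 h, with a log2 change of 2.01, lay at the threshold and ended without 0 h replicate 4 (1.597), 2 h replicate 3 (1.91) or 2 h replicate 4 (1.94). With a pseudocount of 4 the call at 4 h ended as well (1.92).

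Wnt11, a ligand known for guiding cell movements in gastrulation (ENSMUSG00000015957), was the late riser. Uninduced cells held 4.14, 8.15, 2.42 and 11.3, the 48 h samples 29.2, 43.3, 54.5 and 42.3, and the 96 h samples 159, 142, 142 and 170. Its log2 change was 2.67 at 48 h (SE 0.54, adjusted p = 6.7e-05) and 4.53 at 96 h (adjusted p = 9.4e-09), a 23.5-fold higher mean. At 2 h, 4 h and 8 h its samples overlapped those of 0 h. Wnt9a, a ligand known from joint formation (ENSMUSG00000000126), held 0, 1.36, 4.03 and 1.89 at 0 h and 25.5, 32.6, 27.6 and 27.4 at 96 h. This ligand changed by 3.46 (log2) at 48 h and 3.59 at 96 h (SE 0.45, adjusted p = 2.8e-08), and it was called higher at 48 h than at 24 h by 2.75. That step ended as a call with a pseudocount of 4 (1.97) or with replicates 1 and 2 alone (1.79).

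Wnt5b, the closest relative of Wnt5a (ENSMUSG00000030170), was the leading ligand before induction and was almost lost. At 0 h it held 163 and 163 in replicates 1 and 2 but 50.0 and 43.4 in replicates 3 and 4. At 2 h, where it was not called, its mean stood at 28.7% of the 0 h mean. At 4 h the 4 samples held 25.7, 12.1, 4.81 and 4.33, and at 96 h 0, 1.05, 0 and 0.945, which is 2 reads in all. The log2 change was -3.11 at 4 h (SE 0.54, adjusted p = 2.3e-05) and -5.97 at 96 h (adjusted p = 2.5e-11). The 0 h reads were 209 times those at 96 h, with a counting interval of 57.6 to 1733. From 4 h on no sample reached the lowest 0 h sample, in either set of replicates. Wnt5b overlaps Fbxl14 on the other strand, whose mean went from 423 at 0 h to 213 at 96 h.

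Wnt3a, a classical ligand of the beta-catenin branch (ENSMUSG00000009900), stayed low, with means of 1.90 to 13.3, and every time point overlapped 0 h. It held 21.7, 14.7, 7.32 and 9.49 at 16 h and 2.40, 3.13, 0 and 4.08 at 24 h, a call of -2.19 on the log2 scale between them (SE 0.61, adjusted p = 0.0087). The call ended without 16 h replicate 1 (-1.93) or 24 h replicate 3 (-1.68). Wnt2 had its highest mean, 5.62, at 48 h and no read at 0 h, and Wnt2b had means of 2.67 to 5.76. The 9 undetected ligands were Wnt1, Wnt3, Wnt7a, Wnt8a, Wnt8b, Wnt9b, Wnt10a, Wnt10b and Wnt16, with a highest mean of 3.38 (Wnt10a at 8 h) and at most 8 reads in any sample.

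**Figure D2:**
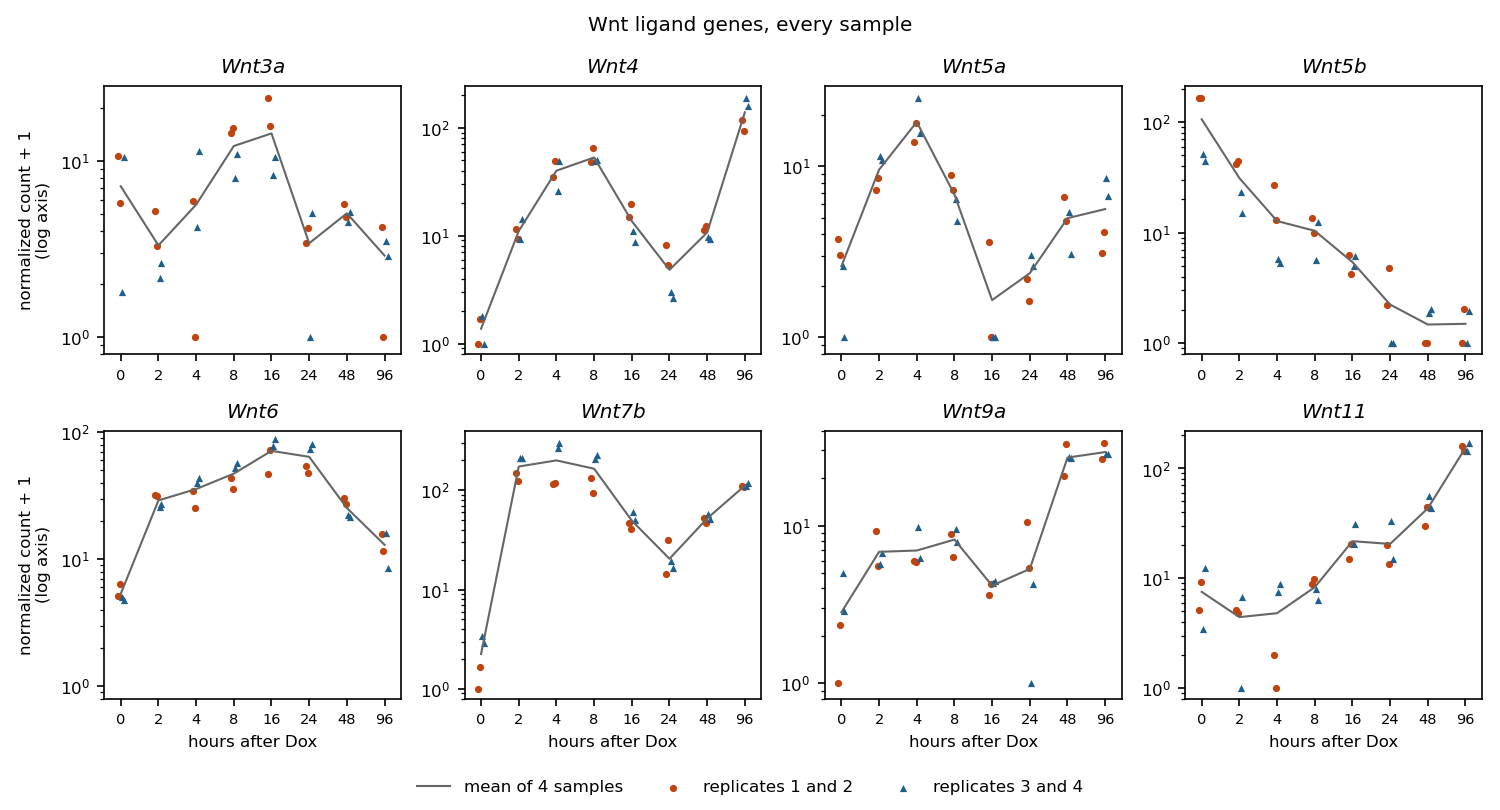
Normalized count + 1 (log axis) of the 8 tested Wnt genes in each sample against hours after Dox, with circles for replicates 1 and 2, triangles for replicates 3 and 4 and a line through the means. Wnt7b and Wnt4 rise early, sink to 19.4 and 3.81 at 24 h and rise again, Wnt11 climbs to 153 at 96 h, and Wnt5b declines from 105 to 0.499.

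Of the 10 Fzd genes, 4 were called against 0 h at least once, beside the 25.2% of all genes: Fzd10, Fzd5 and Fzd9 were lower and Fzd7 higher, while Fzd1, Fzd2, Fzd3, Fzd4, Fzd6 and Fzd8 were not called at any time point.

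Fzd10, a receptor with few known roles in mouse development (ENSMUSG00000081683), fell first. Its values were 465, 449, 636 and 678 at 0 h and 64.4, 58.1, 98.5 and 91.9 at 2 h, so that 14.0% of the 0 h mean was left within 2 h. The log2 change was -2.83 (SE 0.28, adjusted p = 2.9e-09). It then came back in part, to 182, 182, 343 and 328 at 8 h, a log2 change against 0 h of -1.14 that was not called, and went down again to 18.8, 9.42, 15.8 and 15.5 at 48 h (-5.15, adjusted p = 4.7e-16). Every induced sample lay below every 0 h sample. The step up from 4 h to 8 h measured 1.01 on the log2 scale (adjusted p = 0.016) and the step down from 8 h to 16 h -1.05 (adjusted p = 0.010), both short of the 4-fold minimum.

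Fzd5, a receptor known to be needed for the vessels of the yolk sac (ENSMUSG00000045005), held its level for 4 h and then ran down. Uninduced samples held 1317, 1345, 1437 and 1534, and those of 4 h still held 1343, 1398, 1443 and 1463. By 8 h the values were 904, 891, 765 and 814, and by 96 h they had reached 101, 95.7, 65.3 and 63.3. The samples of 2 h and 4 h overlap those of 0 h, and those from 8 h on all lie below. Fzd5 changed by -2.40 on the log2 scale at 24 h (SE 0.14, adjusted p = 1.1e-14) and -4.13 at 96 h (adjusted p = 5.2e-21), with 5.77% of the 0 h mean left. With replicates 1 and 2 alone the call at 24 h ended (-1.95).

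Fzd7, the Frizzled receptor best known from pluripotent cells (ENSMUSG00000041075), was the 1 receptor called higher than at 0 h. From 193, 221, 132 and 128 in the 0 h samples it went up to 656, 698, 508 and 541 in those of 24 h, with 771, 822, 756 and 739 measured at 48 h. All samples from 8 h on lay above all 0 h samples. The log2 change was 1.85 at 24 h, short of the 4-fold minimum, and 2.23 at 48 h (SE 0.14, adjusted p = 1.2e-14), a 4.58-fold higher mean. At 96 h it stood at 579, 544, 542 and 549 (log2 change 1.75, adjusted p = 2.2e-12). With replicates 1 and 2 alone, whose 0 h values were the higher ones, the call at 48 h ended (1.94).

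Fzd9 (ENSMUSG00000049551), a low receptor, held 13.8, 14.3, 16.1 and 17.0 at 0 h and 4.71, 1.88, 2.64 and 3.10 at 48 h. Its log2 changes of -2.08 at 24 h and -2.04 at 48 h (SE 0.39, adjusted p = 3.2e-05) lay at the threshold. The 24 h call ended without 24 h replicate 3 (-1.44), and the 48 h call without 0 h replicate 4 (-1.99), 48 h replicate 2 (-1.88) or 48 h replicate 3 (-1.996). Among the receptors not called against 0 h, Fzd4, the receptor of the retinal vessel signal norrin, held 27.0, 20.4, 27.0 and 30.4 at 2 h, below all 0 h samples (44.2, 57.1, 66.9 and 81.2), and 110, 131, 148 and 123 at 96 h, above all of them. Its log2 changes were -1.20 at 2 h (SE 0.18, adjusted p = 3.7e-06) and 1.05 at 96 h.

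Fzd2, known for signalling with Wnt5a, went from a mean of 24.2 ± 6.48 at 0 h to 73.4 ± 17.2 at 8 h (log2 change 1.57, adjusted p = 2.5e-06). Fzd1 went from 3.89 ± 2.49 to 16.7 ± 4.83 at 96 h (log2 change 1.93, adjusted p = 0.00010), the widest difference among the receptors that were not called against 0 h. Fzd3 and Fzd6, both known from cell polarity, had means of 43.9 to 111 and 34.2 to 112. Fzd6 was highest at 2 h, where its 4 samples (102, 103, 141 and 103) lay above all 0 h samples, with a log2 change of 0.78. Fzd8 had means of 13.9 to 33.1.

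**Figure D3:**
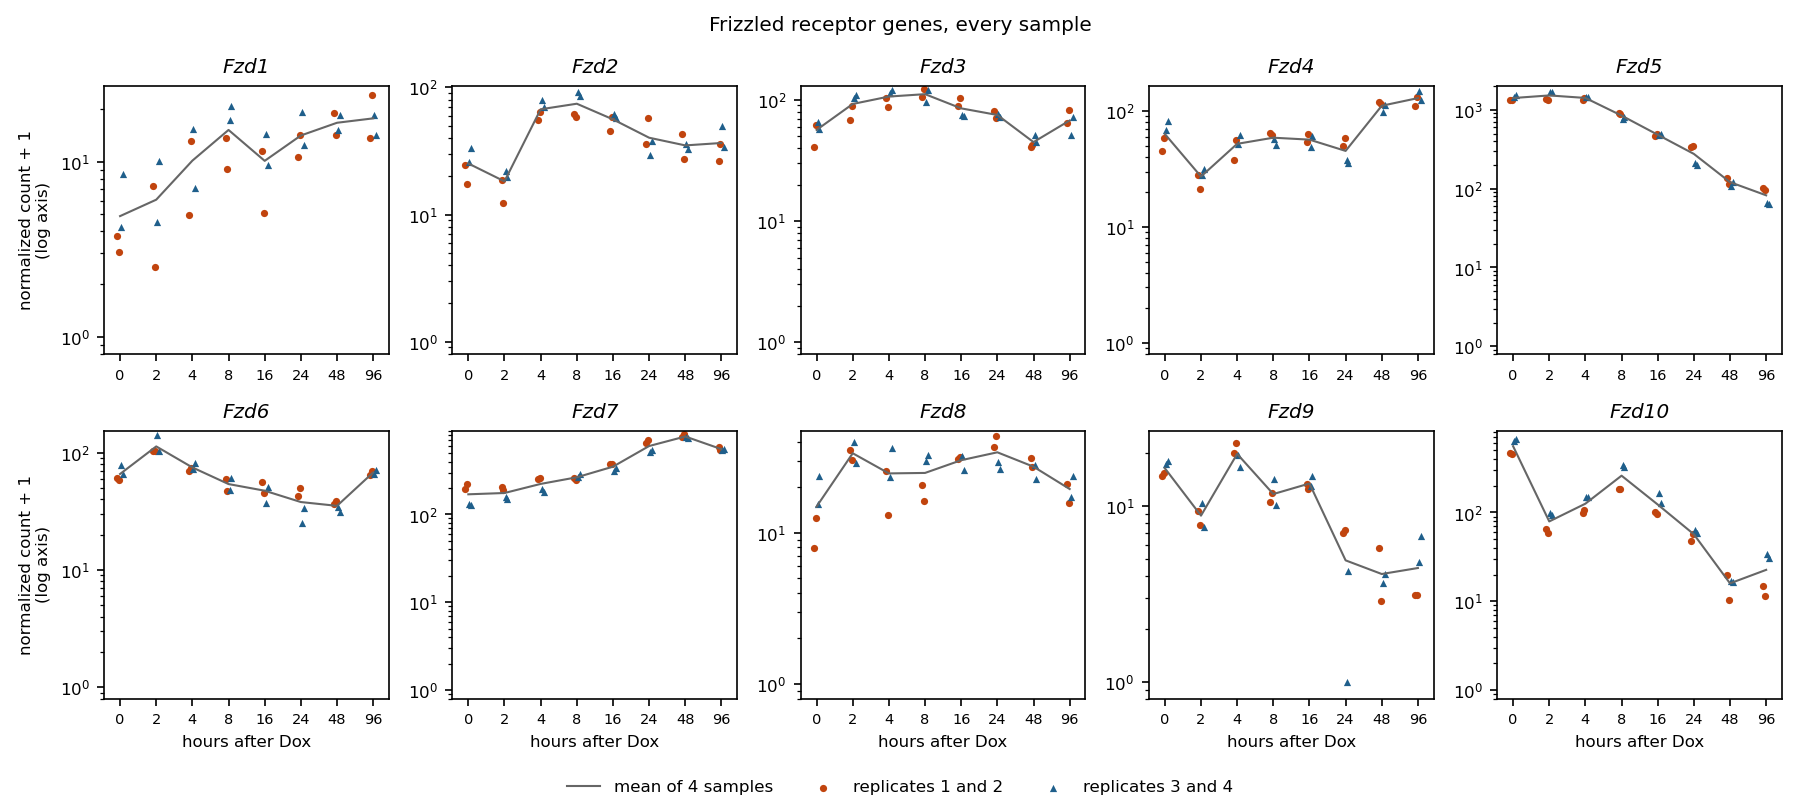
Normalized count + 1 (log axis) of the 10 Fzd genes in each sample against hours after Dox, with circles for replicates 1 and 2, triangles for replicates 3 and 4 and a line through the means. Fzd5 falls from 1408 to 81.3 and Fzd10 from 557 to 21.6 between 0 h and 96 h, Fzd7 rises from 169 to 772 at 48 h, and Fzd4 dips to 26.2 at 2 h before it reaches 128.

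The Sfrp group was one abundant gene and 3 scarce ones. Sfrp1, a secreted Wnt-binding protein (ENSMUSG00000031548), held 1273 and 1351 in replicates 1 and 2 but 2727 and 2716 in replicates 3 and 4 at 0 h. At 4 h it held 742, 756, 1242 and 1232, at 48 h 146, 179, 140 and 147, and at 96 h 103, 96.8, 67.8 and 71.9. All samples from 4 h on lay below the lowest 0 h sample. Its log2 change was -0.97 at 4 h, -3.63 at 48 h (SE 0.24, adjusted p = 3.2e-14) and -4.48 at 96 h (adjusted p = 1.1e-16), when 4.21% of the 0 h mean was left. At 8 h and 16 h the change stayed at -0.97 and -0.94, and the fall went on after 16 h.

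Sfrp5, known as a product of the anterior visceral endoderm (ENSMUSG00000018822), held 2.76, 0.679, 2.42 and 0 at 0 h and 13.2, 22.6, 11.4 and 11.4 at 48 h. The log2 change at 48 h was 2.80 (SE 0.47, adjusted p = 4.3e-06), a ratio of reads of 8.94 (interval 3.83 to 25.5), and it ended as a call with a pseudocount of 4 (1.77). At 96 h it held 5.31, 8.41, 3.77 and 1.89, which overlaps 0 h. Sfrp4 (ENSMUSG00000021319) held 23.5, 31.9, 15.3 and 15.1 at 0 h and 0, 1.25, 0 and 0 at 24 h, a log2 change of -4.13 (SE 0.48, adjusted p = 1.7e-08), with 2 reads left in the 4 samples. It was called lower at 16 h, 24 h, 48 h and 96 h. The call at 16 h (-2.67) ended with a pseudocount of 4 (-1.94). Sfrp2 had means of 2.07 to 13.1, highest at 8 h (log2 change 1.18), and was not called.

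**Figure D4:**
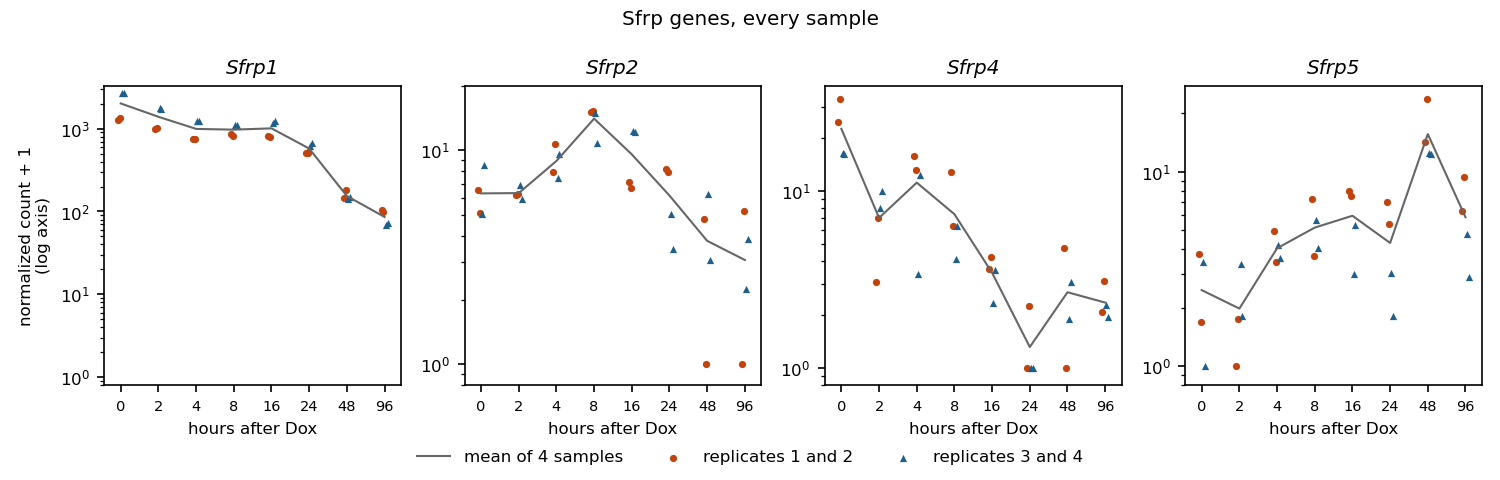
Normalized count + 1 (log axis) of the 4 Sfrp genes in each sample against hours after Dox, with circles for replicates 1 and 2, triangles for replicates 3 and 4 and a line through the means. Sfrp1 falls from 2017 to 84.8 and Sfrp4 from 21.5 to 1.34 between 0 h and 96 h, and Sfrp5 peaks at 14.6 at 48 h.

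Levels can be set side by side only per length, as normalized counts per kilobase (kb) of exon. Summed over the 19 Wnt genes, the level per kb was 49.1 ± 25.9 in uninduced cells, 70.2 ± 3.16 within 2 h of Dox and 85.9 ± 15.5 by 8 h. It was lower at 24 h, with 46.4 ± 7.24, and came to 111 ± 11.2 by 96 h. Behind these sums the leading ligand changed several times. Wnt5b made up 75.9% ± 12.0 of the sum at 0 h, Wnt7b 49.9% ± 11.8 at 2 h, Wnt6 61.3% ± 6.08 at 24 h, and Wnt11 and Wnt4 33.4% ± 3.61 and 29.0% ± 6.17 at 96 h. The leading gene did not overlap the next one in any sample at 0 h, 2 h, 4 h, 16 h and 24 h. At 8 h Wnt7b and Wnt6, at 48 h Wnt6 and Wnt7b, and at 96 h Wnt11 and Wnt4 overlapped, so their order is not settled there.

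For the receptors the sum per kb went from 456 ± 47.6 at 0 h to 197 ± 2.42 at 96 h. Fzd5 and Fzd10 held 44.8% ± 1.69 and 37.3% ± 4.09 of it at 0 h, and their levels per kb overlapped (204 ± 14.2 and 171 ± 36.0). Fzd5 led alone from 2 h to 8 h. At 16 h Fzd7 and Fzd5 overlapped (77.0 ± 6.85 and 69.6 ± 1.61 per kb), and from 24 h on Fzd7 led with no overlap, at 57.6% ± 1.26, 71.6% ± 2.19 and 62.0% ± 2.40 of the sum at 24 h, 48 h and 96 h. The second receptor at 96 h was Fzd4, at 19.1 ± 2.36 per kb. The Sfrp sum went from 470 ± 185 per kb at 0 h to 23.2 ± 5.37 at 96 h, and Sfrp1 was the leading gene at all 8 time points, with 78.9% ± 2.03 of the sum at its lowest share, at 48 h, when Sfrp5 held 17.0% ± 3.73. These shares are a description with no test.

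**Figure D5:**
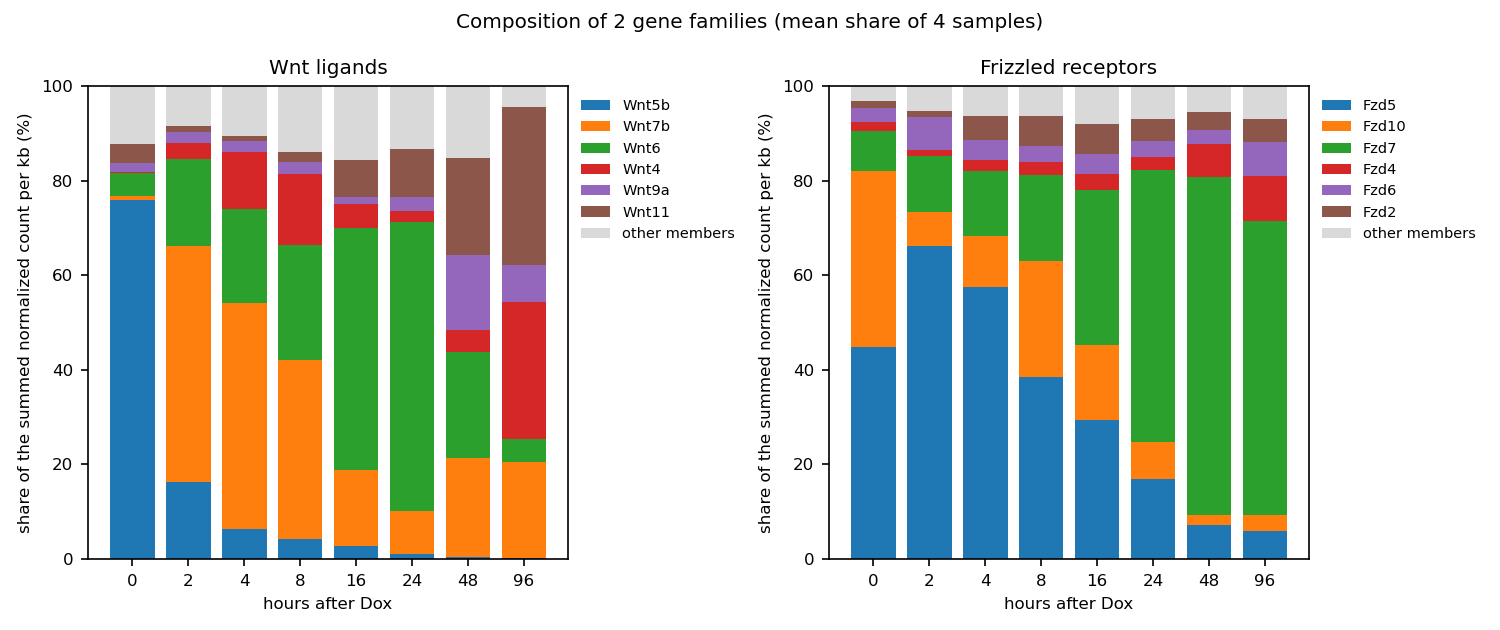
Stacked bars of the mean share (%) of each gene in the summed normalized count per kb of the 19 Wnt genes (left) and 10 Fzd genes (right) at each time point, with the remaining members in grey. The largest share passes from Wnt5b (75.9% at 0 h) to Wnt7b (49.9% at 2 h), Wnt6 (61.3% at 24 h) and Wnt11 (33.4% at 96 h), and among receptors from Fzd5 to Fzd7 (71.6% at 48 h).

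Few members passed the thresholds in a step between successive induced time points. Over 6 such steps, 2 members were called higher at least once (Wnt9a and Wnt4), beside 4.91% of all genes tested, and 3 lower (Wnt4, Wnt5a and Wnt3a), beside 5.12%. The members called in a step were all ligands. With single libraries left out the lower count ranged from 2 to 5, with 5 without 24 h replicate 2. With a pseudocount of 4 the 3 lower calls and the call of Wnt9a ended. On the deposited log2 scale the 3 lower calls ended as well.

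Since 2 h, 48 h and 96 h cells had all been in serum medium, setting the late time points against 2 h compares cells that had all left 2i, though 2 h cells had left it only shortly before. Dox was present at 2 h and absent later, and the time since the change of medium cannot be told apart from the time since Dox. At 48 h, 4 members were higher than at 2 h (Fzd7, Fzd4, Wnt11 and Sfrp5), beside 8.5% of all genes, and 4 lower (Fzd5, Fzd10, Wnt5b and Sfrp1), beside 7.65%. At 96 h, 4 were higher (Wnt4, Fzd4, Wnt11 and Wnt9a), beside 9%, and 3 lower (Fzd5, Wnt5b and Sfrp1), beside 10.6%. The largest differences at 96 h were 5.42 for Wnt11 (SE 0.54, adjusted p = 2.4e-10), -4.33 for Wnt5b and -4.23 for Fzd5 on the log2 scale. Fzd4, not called against 0 h, was called here, with 2.04 at 48 h and 2.25 at 96 h (SE 0.18, adjusted p = 2.2e-12). Its mean was 42.0% of the 0 h mean at 2 h and 206% of it at 96 h. The call of Fzd4 at 48 h ended without 2 h replicate 2 (1.93) or with a pseudocount of 4 (1.92). The call of Wnt9a at 96 h against 2 h (2.13) ended with a pseudocount of 4 (1.73) or with scaling to total reads (1.99), and that of Sfrp5 at 48 h against 2 h (3.06) with a pseudocount of 4 (1.89). Wnt7b stood at 29.6% of its 2 h mean at 48 h, a log2 change of -1.70 (SE 0.33, adjusted p = 4.0e-05) short of the 4-fold minimum, and at 64.0% of it at 96 h (log2 change -0.60, adjusted p = 0.10).

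The rest of the pathway gives the setting of these changes. Of 63 pathway genes listed outside the 33 members, 50 passed the filter. At 96 h against 0 h, 9 of the 50 were called higher and 9 lower, beside the 9.28% and 10.3% of all genes. At 2 h 1 of the 50 was higher and none lower, beside 2% and 0.348% of all genes. The gene called at 2 h was Tpbg, a membrane protein known to dampen Wnt signalling (log2 change 2.699). Of the 2 genes of Wnt secretion, Wls, which carries Wnt proteins to the cell surface, rose from 19.2 to 94.3 at 96 h (log2 change 2.30), and Porcn, which attaches their lipid, went from 276 to 60.9 at 16 h (log2 change -2.15) and 295 at 96 h. Among 6 co-receptors and alternative receptors tested, 1 was higher at 96 h and 1 lower: Ror1 by 2.73 and Ror2, both receptors of Wnt5a, by -3.40.

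Of 7 secreted antagonists tested, 4 were higher at 96 h and 1 lower. Dkk1, which blocks LRP co-receptors, went from a mean of 11.0 to 999.5 (log2 change 6.43, adjusted p = 2.0e-18). Frzb, a relative of the Sfrp proteins, went from 0.547 to 111 (log2 change 6.26), and Notum, an enzyme that strips the lipid from Wnt proteins, from 436 to 4.18 (log2 change -6.47). Among 6 membrane antagonists 1 was called at 96 h, Kremen2, at -3.05. Neither of 2 genes tested among the R-spondins and their receptors was called at 96 h. Of 18 intracellular genes 2 were higher and 3 lower, led by Axin2, a feedback gene of the beta-catenin branch (651 to 36.4, log2 change -4.10), with Bcl9l at 2.79 and Tcf7 at -2.59. Of 9 polarity genes 1 was higher and 3 lower, with Prickle1 at 3.78, Celsr1 at -2.66 and Vangl2 at -2.26.

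The genes whose time course was most like that of 3 leading members were looked up over the genes tested whose deposited row had a symbol. The measure was Pearson's correlation over the 8 time point means of log2(normalized count + 1). For Wnt7b, the rising ligand with the highest level per kb, they were Prag1 (0.982), Shb (0.970) and Cyld (0.959). For Fzd7 they were Rhou (0.998), Myo5b (0.990) and Slc16a3 (0.990), and for Fzd5, the most abundant falling receptor, Trpa1 (0.997), Gca (0.997) and Padi4 (0.996). These values describe 8 points that come from the same libraries for every gene.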

How the data were processed

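Poly(A)-selected RNA of 32 samples was sequenced by the authors as single reads (TruSeq Stranded mRNA), and the labels' processing notes name cutadapt 2.7, HISAT2 2.1.0 and featureCounts from Subread 1.6.4 on GRCm38.p6. The deposited values are log2 values from a variance-stabilizing transformation of read counts. Inverting it gave normalized counts, of which 100% were whole reads (within 0.001) once each sample's step was divided out, so the depth per sample could be read from the table.

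Samples were grouped by the labelled time point. Differences were tested with limma 3.58.1 (R 4.3.3) on log2(normalized count + 1) over all 8 groups, with Benjamini-Hochberg adjustment over 15227 genes that reached 10 normalized counts in 4 or more samples. In counts simulated for 48 h against 0 h with 200 changed genes, 200 were recovered with 0 false calls. The changed genes were drawn from those with a mean of at least 50 and changed by more than the 4-fold minimum. Replicates were simulated without sets, so the recovery does not describe low members or changes near the minimum. Exon lengths come from GENCODE vM21, promoters from RefSeq. The members, the pathway and marker lists and the rule for named genes (all members accounted for, those called given sample by sample, up to 3 genes per pathway list with the largest called change at 96 h, and the 3 genes most like a leading member) were chosen with earlier results of these data known. The count table held 54233 rows, of which 29140 had no symbol. Alternatives were other pseudocounts, filters, scalings and fits, each replicate left out, and, chosen after seeing the data, voom on the reads, the deposited log2 values as they are, each set of replicates alone, averaged or as a covariate, and each library left out.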

Additional observations from a re-analysis of the deposited data

Results flagged for a closer look

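Among the 14 members called against 0 h, 94 groups of 4 samples were examined for a sample far from its others by Dixon's criterion, and 5 stood out, where chance alone gives about 1 in 20. Wnt4 at 8 h was 63.4 in replicate 2, beside 48.7 in the next sample. Wnt7b at 96 h was 117 in replicate 4, beside 108. Wnt9a at 4 h was 8.82 in replicate 3, beside 5.20. Sfrp1 at 48 h was 179 in replicate 2, beside 147, and Sfrp5 at 48 h was 22.6 in replicate 2, beside 13.2. These last values come from the same library, and each is a normalized count.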

How the results depend on the processing

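Over all alternatives no called change of a member reversed. Of 70 called differences of members, 20 fell below the threshold under at least 1 alternative, in 65 of the 3457 values recomputed. A call that an alternative did not test, as for low members with a filter mean of at least 50, was not counted as lost. With a filter mean of at least 50, which leaves out low members by construction, the members higher than at 0 h were 1 at each of 2 h, 4 h, 8 h, 16 h, 24 h and 96 h and 2 at 48 h, and those lower were 1 in the 4 h and 16 h comparisons, 0 in that of 8 h, 2 in that of 24 h and 3 in those of 48 h and 96 h; against 2 h, 2 were higher at 48 h and 1 at 96 h, and 0 were higher or lower than at the preceding time point. With a pseudocount of 4 the members higher were 1 at 2 h, 4 at 48 h and 2 at 48 h against 2 h, and over successive steps 1 was higher and 0 lower. A pseudocount of 0.5 gave 6 lower over successive steps. On the deposited log2 scale 1 was higher at 2 h, 4 at 48 h, and 0 lower over successive steps. Leaving out a replicate number gave 2 to 4 members higher and 1 to 6 lower over successive steps, and 1 to 2 lower at 2 h. Voom gave 4 higher over successive steps. Replicates 1 and 2 alone gave 2 lower at 2 h and 5 higher and 3 lower at 24 h, and replicates 3 and 4 alone gave 6 lower over successive steps. The cause of these differences was not tested.

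A fit with the replicate number as a block left every count as it was, for example 4 higher and 1 lower at 2 h and 4 higher and 5 lower at 96 h. Same-numbered samples of different time points deviated together with a mean correlation of 0.299, but so did the other number of the same set (0.293), and the lowest same-number value was -0.046, so the numbers do not pair the samples. Scaling to total reads moved the median change of all genes to -0.13 (2 h), -0.16 (48 h) and -0.30 (96 h), to -0.21 for 96 h against 2 h and to -0.13 for 96 h against 48 h, and changed no direction among the called members. With 3190108 reads in the shallowest library, members with means of a few counts, such as Wnt2, Wnt2b and Wnt3a, cannot be followed closely.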

Other observations

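Some other antagonists of the pathway, picked after their values were seen, had their highest mean at 2 h or 8 h. Sost, an inhibitor that binds LRP co-receptors, had no read at 0 h, normalized counts of 53.4, 56.2, 95.7 and 101 at 8 h, 11.3, 6.52, 12.0 and 10.4 at 16 h and none from 24 h on. Cer1, a secreted inhibitor of Nodal and Wnt signals, had no read at 0 h, 7.86, 17.9, 9.33 and 6.84 at 8 h, a mean of 1.90 by 48 h and none at 96 h. It did not pass the filter and was not tested. Tpbg held 693, 724, 818 and 897 at 2 h, above all 0 h samples (91.1, 105, 126 and 168), and 134, 120, 199 and 182 at 8 h, which overlaps 0 h with its highest pair of samples above all of them.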
